A study of Homo sapiens with 12 samples.

Results

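Complex I, the NADH:ubiquinone oxidoreductase of the inner mitochondrial membrane, is the entry point of electrons from NADH into the respiratory chain. Its transcripts were followed here through 36 nuclear genes for its subunits, listed by gene symbol, with earlier results of these data known. All 36 matched 1 gene identifier each among 57905 in the table, and all 36 had enough reads to be tested, among 13832 tested identifiers. The cells were of the OCI-AML3 line, established from a human acute myeloid leukaemia. One pair of groups compared cells given SA at 500 µM for 6 days with cells given vehicle, and the other compared cells with an inducible guide against ALAS1 (sgALAS1) with cells carrying a scrambled guide (sgSCR), all on doxycycline for 7 days. What SA stands for is not spelled out in the labels, and the study's title concerns inhibition of heme synthesis, of which ALAS1 catalyses the first step. Each group had 3 libraries made by QuantSeq, which reads a tag near the 3′ end of a transcript, so that a read stands for a transcript whatever its length. The labels do not say whether the 3 libraries of a group came from separate cultures, so the p-values measure the spread between these libraries, which may be technical.

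The complex has the shape of an L. Its matrix arm holds the N module at the tip, where NADH is oxidised on a flavin, and the Q module at the base, where iron-sulphur clusters hand the electrons to ubiquinone. Its membrane arm holds the proton pumps, divided here into a proximal part next to the matrix arm and a distal part at the far end. The pump cores are encoded in mitochondrial DNA and the remaining subunits in the nucleus, so assembly draws on both genomes and on a set of assembly factors. Complex I carries iron-sulphur clusters and a flavin but no heme, whereas other complexes of the chain, III and IV among them, carry heme. The listed genes comprised 10 of the N module, 5 of the Q module, 9 of the proximal and 12 of the distal pump module.

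Totals lay between 4658513 and 7339843 reads a library, and the 36 genes together took 0.376 to 0.476% of them, with 158 to 4262 reads a gene in a library. Levels are given as normalised CPM, read counts scaled to the size of the library, and changes as log2 fold changes from edgeR's quasi-likelihood test, with p-values adjusted over all tested genes and a threshold of 0.05. ALAS1 stood at 35.0 ± 3.40 CPM with vehicle, 106 ± 4.60 with SA, 39.3 ± 2.37 with sgSCR and 26.6 ± 0.56 with sgALAS1 (SD, n = 3). It was thus lower under its guide (-0.56, adjusted p = 0.00777, and 0.0503 without sgSCR replicate 2) and higher with SA (1.60), and reads near the 3′ end do not show the cut itself. Summed myeloid markers lay at 1005 to 1065 CPM with vehicle, 2068 to 2172 with SA, 806 to 929 with sgSCR and 1623 to 1825 with sgALAS1, while KIT had 0 reads. Much of these sums was LYZ alone, with means of 564, 1455, 341 and 1030 CPM in the same order. Of the 5 myeloid markers tested, 2 were called higher in each comparison, beside 4.83% and 4.88% of all genes. With SA 1 lay below 0, MPO, from 3.50 to 1.71 CPM (-1.03, adjusted p = 0.210). Lymphoid markers summed to 12.5 to 15.9 CPM with vehicle, 0.583 to 1.99 with SA, 4.66 to 5.78 with sgSCR and at most 0.909 with sgALAS1, with 0 reads for CD3E and CD2. Nearly all of that was CD3D, a T-cell receptor chain, at 13.5 ± 1.75 CPM with vehicle, 0.77 ± 0.31 with SA, 4.99 ± 0.74 with sgSCR and 0 reads in the 3 sgALAS1 libraries (SD, n = 3). CD3D was called lower with SA (adjusted p = 5.45e-07), with sgALAS1 (adjusted p = 2.90e-07) and with sgSCR against vehicle (adjusted p = 0.0467), and its part in the results on complex I was not tested. The globin genes HBA1, HBA2 and HBG1 had 0 reads and HBG2 had 17 over all libraries, while EPOR, the erythropoietin receptor, was at 5.53 ± 1.19 CPM with vehicle, 5.31 ± 1.63 with SA, 7.09 ± 0.99 with sgSCR and 11.4 ± 1.66 with sgALAS1 (adjusted p = 0.158 against sgSCR). Stromal or epithelial markers summed to 6.07 to 9.38 CPM with vehicle, 2.33 to 6.37 with SA, at most 2.89 with sgSCR and 2.88 to 5.45 with sgALAS1. Myeloid maturation markers, a list that includes S100A8, S100A9 and LYZ (the last also among the myeloid markers), summed to 663 to 812 CPM with vehicle, 1840 to 2112 with SA, 383 to 477 with sgSCR and 1204 to 1360 with sgALAS1. Of the 8 maturation markers tested, 6 rose with SA and 6 with sgALAS1, beside 4.83% and 4.88% of all genes. With sgSCR against vehicle 2 of the 8 were called lower and 6 lay below 0 (median -0.64). CYBB averaged 123 CPM with vehicle, 209 with SA, 66.4 with sgSCR and 132 with sgALAS1. FCN1 averaged 0.09, 5.38, 0.48 and 0.36 CPM in the same order. The direct test of the difference between the effects called 1 of the 8, lower. Maturation itself was not measured, and the part of these markers in the results on complex I was not tested. In bulk RNA, fewer cells of a kind and less RNA per cell cannot be told apart.

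The 3 subunit genes that were lower in both comparisons, NDUFV2, NDUFB8 and NDUFAB1, the 1 that was higher with SA, NDUFA3, and NDUFB4, which holds an NRF1 motif, are shown by the 250 bases before their start. The sequences are RefSeq's, on GRCh38.p14, read 5′ to 3′ on the gene's strand, and capitals mark the searched motifs found in them. NDUFV2 lies at chr18:9102449-9102698 (plus strand) and holds 3 GC boxes. NDUFB8, at chr10:100529924-100530173 (minus strand), has 1 GC box. NDUFAB1, at chr16:23596317-23596566 (minus strand), and NDUFA3, at chr19:54102605-54102854 (plus strand), have none of the motifs. NDUFB4 lies at chr3:120596086-120596335 (plus strand).
NDUFV2: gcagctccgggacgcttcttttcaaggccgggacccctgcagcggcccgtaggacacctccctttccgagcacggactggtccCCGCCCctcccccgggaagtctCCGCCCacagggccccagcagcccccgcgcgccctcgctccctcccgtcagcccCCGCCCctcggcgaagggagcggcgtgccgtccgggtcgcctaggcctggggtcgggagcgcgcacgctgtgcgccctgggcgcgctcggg
NDUFB8: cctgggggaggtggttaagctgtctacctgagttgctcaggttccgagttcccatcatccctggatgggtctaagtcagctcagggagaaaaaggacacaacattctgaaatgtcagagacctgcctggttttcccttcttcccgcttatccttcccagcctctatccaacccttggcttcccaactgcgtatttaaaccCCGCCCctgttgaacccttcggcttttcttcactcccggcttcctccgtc
NDUFAB1: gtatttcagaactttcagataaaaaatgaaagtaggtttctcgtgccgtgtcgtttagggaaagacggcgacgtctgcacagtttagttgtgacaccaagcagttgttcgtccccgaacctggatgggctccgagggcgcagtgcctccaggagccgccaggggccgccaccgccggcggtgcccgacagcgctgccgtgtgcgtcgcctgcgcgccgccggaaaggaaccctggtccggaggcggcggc
NDUFA3: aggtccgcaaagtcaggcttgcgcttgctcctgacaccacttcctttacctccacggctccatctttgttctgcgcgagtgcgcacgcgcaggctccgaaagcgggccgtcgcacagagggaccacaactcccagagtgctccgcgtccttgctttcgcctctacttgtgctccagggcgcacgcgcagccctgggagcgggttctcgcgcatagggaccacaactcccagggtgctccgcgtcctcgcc
NDUFB4: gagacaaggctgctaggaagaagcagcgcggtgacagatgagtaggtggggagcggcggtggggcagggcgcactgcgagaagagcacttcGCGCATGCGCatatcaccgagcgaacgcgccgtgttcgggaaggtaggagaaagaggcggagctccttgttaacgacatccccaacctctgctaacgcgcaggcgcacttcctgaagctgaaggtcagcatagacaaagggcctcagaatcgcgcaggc

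The motifs searched were those of factors known for nuclear respiratory genes, on both strands, over 300 bases from 250 before to 50 after the start. Of the 36 genes, 32 had a promoter entry, and the shares are set beside those of the promoters of 9699 other tested genes. The YY1 motif AAGATGGCG was in 5 of 32 (15.6%, against 4.13%), namely NDUFA6, NDUFA7, NDUFA9, NDUFS4 and NDUFS7, in each beginning 11 to 26 bases after the start. The palindromic NRF1 motif, in capitals in NDUFB4, was in 2 (6.25%, against 2.41%). The ETS motif CCGGAAG was in 5 (15.6%, against 20.4%) and the GC box GGGCGG in 20 (62.5%, against 70.1%). The ERR motif TCAAGGTCA was in 0, against 0.175% of the others. These are matches of letters and not measured binding. Among the 8 genes past the test in either comparison, 7 had an entry, NDUFB9 being without one. Of the 3 genes lower in both, NDUFV2 and NDUFB8 held GC boxes alone and NDUFAB1 held none of the motifs.

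With SA, the share of complex I genes that passed the test was that of all genes. NDUFV2, NDUFB8 and NDUFAB1 fell and NDUFA3 rose, which is 4 of 36 (11.1%) beside 11.1% of all tested genes. In direction, 1 was higher (2.78%, against 4.83%) and 3 were lower (8.33%, against 6.24%). The median over the 36 was -0.17, beside -0.01 over all tested genes, and 22 of 36 (61.1%) lay below 0, beside 51.0%. The SA libraries lay all below the vehicle libraries for 8 genes (22.2%, against 14.8% of all genes) and all above for 2 (5.56%, against 12.6%). An unadjusted p under 0.05 was reached by 14 of the 36 (38.9%, against 24.4% of all genes), 11 lower (against 13.2%) and 3 higher (against 11.3%). For 28 of the 36 the 95% interval of the change lay within 1.5-fold in either direction.

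With the ALAS1 guide, 7 of 36 genes fell (19.4%) and 0 rose, beside 11.7% of all tested genes called in either direction, 6.85% lower and 4.88% higher. The 7 were NDUFV2, NDUFV1, NDUFAB1, NDUFB8, NDUFB9, NDUFB4 and NDUFA9. At an unadjusted p under 0.05 in edgeR 11 were lower (30.6%, against 13.3% of all genes) and 0 higher (against 11.6%), beside 24.8% in either direction. The DESeq2 and limma-voom fits each called 7. The median over the 36 was -0.04, beside -0.00 over all genes, and 20 of 36 (55.6%) lay below 0, beside 50.3%. The sgALAS1 libraries lay all below the sgSCR libraries for 11 genes (30.6%, against 15.5%) and all above for 2 (5.56%, against 13.6%). In 27 of the 36 the 95% interval stayed within 1.5-fold.

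**Figure D1:**
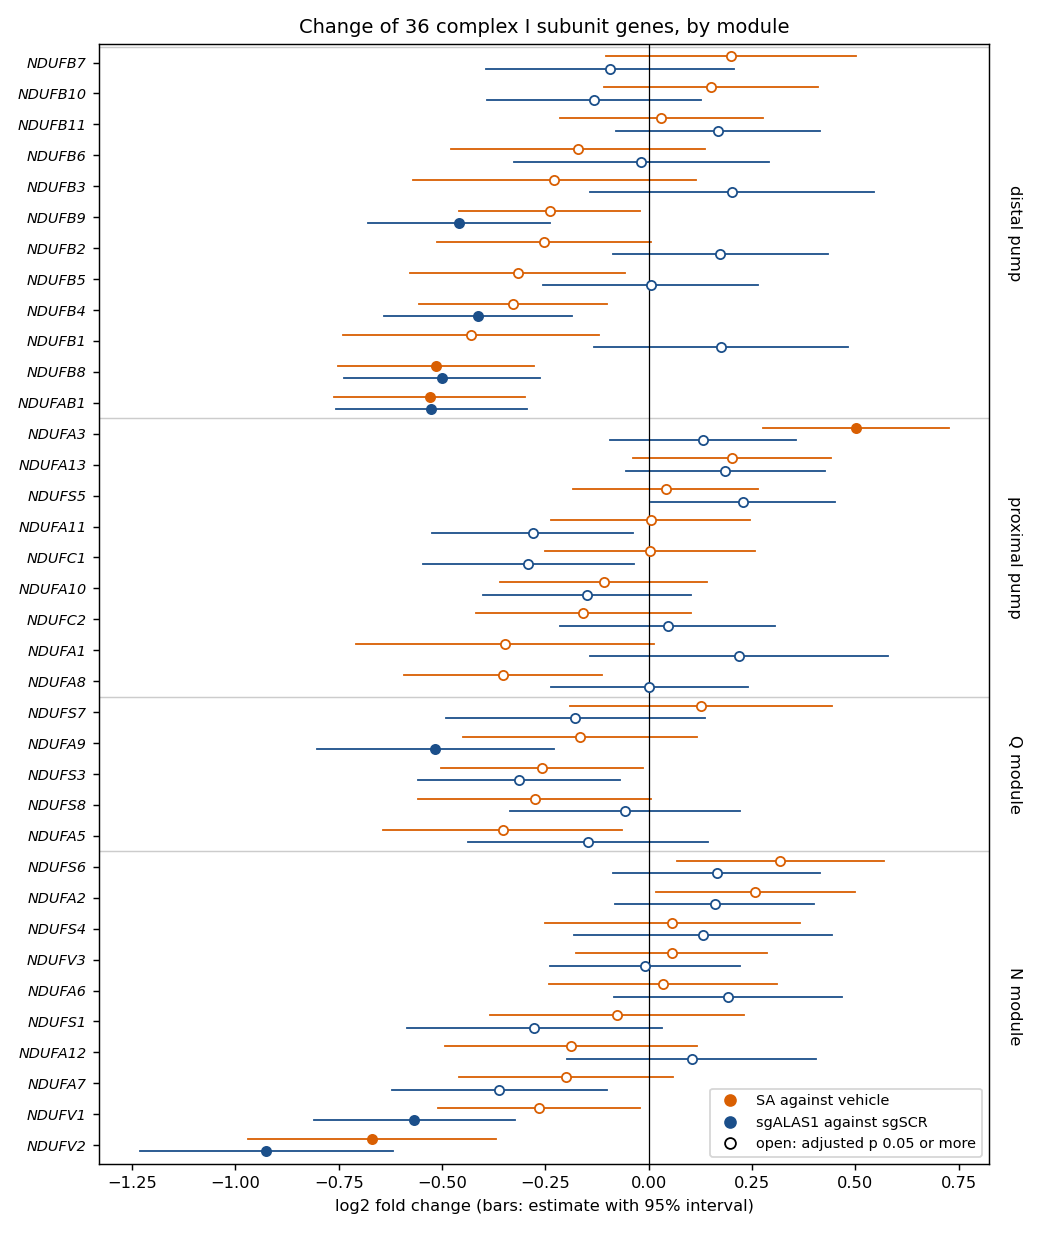
Log2 fold change of each of the 36 genes (x axis) by module (y axis), SA against vehicle in orange and sgALAS1 against sgSCR in blue, with bars for the 95% interval and filled points past an adjusted p of 0.05. The filled points are 4 for SA, of which NDUFA3 alone lies above 0, and 7 for sgALAS1, all below 0.

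NDUFV2, the subunit of the N module that carries an iron-sulphur cluster beside the flavin site, had the lowest fold change of the 36 in both comparisons. It stood at 70.5, 51.1 and 71.5 CPM with vehicle, 43.5, 37.2 and 40.7 with SA, 69.5, 65.1 and 54.6 with sgSCR, and 34.9, 29.6 and 35.0 with sgALAS1. Every treated library lay below every library of its own control, and the lowest vehicle library was replicate 2. The log2 fold change was -0.67 with SA (SE 0.15, adjusted p = 0.00374) and -0.93 with sgALAS1 (SE 0.16, adjusted p = 9.38e-05). Leaving out any 1 library gave -0.81 to -0.59 and -1.02 to -0.85. The overlapping identifier ENSG00000265257, on the same strand, had 99.3 to 113% as many reads as NDUFV2 and changed by -0.69 (adjusted p = 0.0023) and -0.82 (adjusted p = 2.84e-04), so that reads of the 2 identifiers may not be separable.

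NDUFB8, a distal membrane-arm subunit often probed as a sign of assembled complex I, was nearly the same in the SA and sgALAS1 libraries. Its levels were 122.5, 103.6 and 127.2 CPM with vehicle and 84.3, 88.5 and 74.6 with SA, then 118.3, 126.0 and 122.8 with sgSCR and 88.6, 87.4 and 83.6 with sgALAS1. Neither treated group overlapped its control. The fold changes were -0.52 (SE 0.12, adjusted p = 0.00467) and -0.50 (SE 0.12, adjusted p = 0.00505). Another identifier on the same strand, ENSG00000255339, had 19.4 to 50.5% as many reads and was at -0.69 (adjusted p = 0.115) and -0.23.

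NDUFAB1 encodes the mitochondrial acyl carrier protein, which sits in complex I and also carries the growing chain of mitochondrial fatty acid synthesis, from which lipoic acid is made. It varied little within groups, with a pooled SD of 0.0714 on the log2 scale. The libraries read 112.0, 106.5 and 104.4 CPM with vehicle, 77.5, 71.0 and 75.1 with SA, 103.4, 114.9 and 101.0 with sgSCR, and 72.4, 77.6 and 71.8 with sgALAS1. All 6 treated libraries lay below all 6 control libraries. The change was -0.53 (SE 0.12) in both comparisons, with adjusted p-values of 0.00285 and 0.00261.

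NDUFA3, a small subunit of the proximal membrane arm, was the 1 gene that rose. It was at 151.6, 119.3 and 139.4 CPM with vehicle and 205.0, 190.8 and 185.3 with SA, a rise of 0.50 (SE 0.12, adjusted p = 0.00383) without overlap. In the guide libraries it was at 150.6, 152.4 and 165.5 with sgSCR and 173.5, 176.1 and 163.4 with sgALAS1, which overlap (0.13, SE 0.11, adjusted p = 0.536). The direct test of the difference between the effects gave -0.37 (adjusted p = 0.347), so a difference was not shown. These 4 calls with SA held when any 1 of the 6 libraries was left out, with adjusted p-values of at most 0.0495 for NDUFB8 and 0.042 for NDUFA3.

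**Figure D2:**
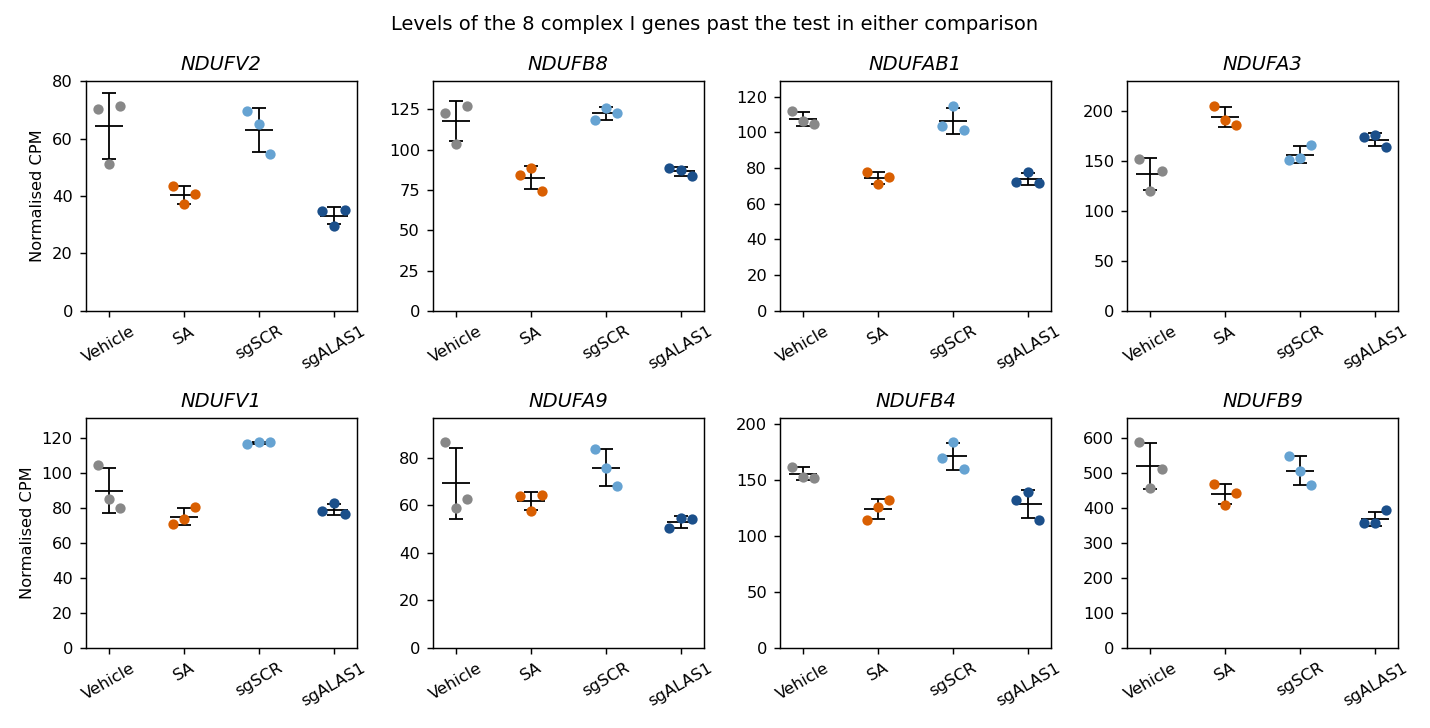
Normalised CPM (y axis, from 0) of the 8 genes past the test in either comparison, in each of 3 libraries of the 4 groups (x axis), with the mean and SD in black. NDUFV2, NDUFB8 and NDUFAB1 lie lower in both treated groups than in either control, NDUFA3 is highest with SA, and NDUFV1 is higher with sgSCR (116.5 to 117.7) than with vehicle (80.0 to 104.6).

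NDUFV1, the N-module subunit that binds the flavin and NADH, fell under the ALAS1 guide. Its libraries read 116.5, 117.6 and 117.7 CPM with sgSCR and 78.3, 82.7 and 76.5 with sgALAS1, a fall without overlap (-0.57, SE 0.12, adjusted p = 0.00197). Vehicle libraries were at 104.6, 85.5 and 80.0 and SA libraries at 70.7, 73.8 and 80.4 (-0.26, adjusted p = 0.185), which overlap. The control groups differ here: sgSCR lay above vehicle in every library by 0.38 (adjusted p = 0.130, and 0.0361 without vehicle replicate 1).

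NDUFA9, a Q-module subunit at the joint of matrix and membrane arms, was at 83.9, 75.9 and 68.1 CPM with sgSCR and 50.3, 54.9 and 54.1 with sgALAS1. The guide groups do not overlap, and the fall of 0.52 on the log2 scale (SE 0.15) had an adjusted p of 0.0175. The call was lost without sgSCR replicate 1, sgSCR replicate 2 or sgALAS1 replicate 1, with adjusted p-values of up to 0.0965. Vehicle libraries read 86.6, 58.7 and 62.6 and SA libraries 64.1, 57.5 and 64.2, which overlap (-0.17, adjusted p = 0.532).

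NDUFB4, a distal-arm subunit, read 169.3, 183.2 and 159.7 CPM with sgSCR and 131.5, 138.5 and 114.1 with sgALAS1, a fall without overlap (-0.41, SE 0.12, adjusted p = 0.0165). Without sgSCR replicate 2 or sgALAS1 replicate 3 it was no longer called, with adjusted p-values of up to 0.117. With vehicle it was at 161.7, 152.5 and 151.7 and with SA at 113.9, 125.5 and 131.3. The drug groups also stand apart, and the test there gave -0.33 (adjusted p = 0.0651).

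NDUFB9, a distal-arm subunit, had the highest level of the 36, with a mean of 459 CPM over all libraries. The guide libraries read 549.0, 506.3 and 464.9 with sgSCR and 355.5, 357.6 and 392.7 with sgALAS1, a fall without overlap (-0.46, SE 0.11, adjusted p = 0.0056). Vehicle was at 587.9, 457.8 and 512.8 and SA at 468.6, 409.4 and 441.8, which overlap (-0.24, adjusted p = 0.178). The gene lies on chromosome 8, where the other 470 tested genes had a median change of -0.34 with sgALAS1 and -0.25 with SA, and 22.6% of them were called lower with sgALAS1. NDUFB9 therefore differed from its chromosome's median by -0.12 and 0.01. For the other 7 called genes the chromosome medians lay between -0.04 and 0.09 with SA and between -0.03 and 0.03 with sgALAS1.

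The direct test of the difference between the effects called 0 of the 36 genes, beside 1.19% of all genes (0.427% higher and 0.759% lower), and 19 of 36 lay below 0 (52.8%, against 50.1%). An unadjusted p under 0.05 was reached by 5 (13.9%, against 11.9% of all genes), 4 higher (against 5.47%) and 1 lower (against 6.43%), and DESeq2 and limma-voom called 0 as well. The 95% intervals of the difference were -0.68 to 0.17 for NDUFV2, -0.32 to 0.35 for NDUFB8 and -0.32 to 0.33 for NDUFAB1. The largest difference was that of NDUFB1 (0.61, SE 0.22, adjusted p = 0.231), and the rest ran down to -0.37. The genes called lower in both comparisons were NDUFV2, NDUFB8 and NDUFAB1. The share of all tested genes called in both was not counted, so no baseline stands beside that overlap. The comparisons share no libraries. Over the 36 genes their changes had the same sign for 22, with 14 below 0 and 8 above, and a Pearson r of 0.50 across genes, beside 0.54 across all tested genes, where genes are not independent replicates.

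**Figure D3:**
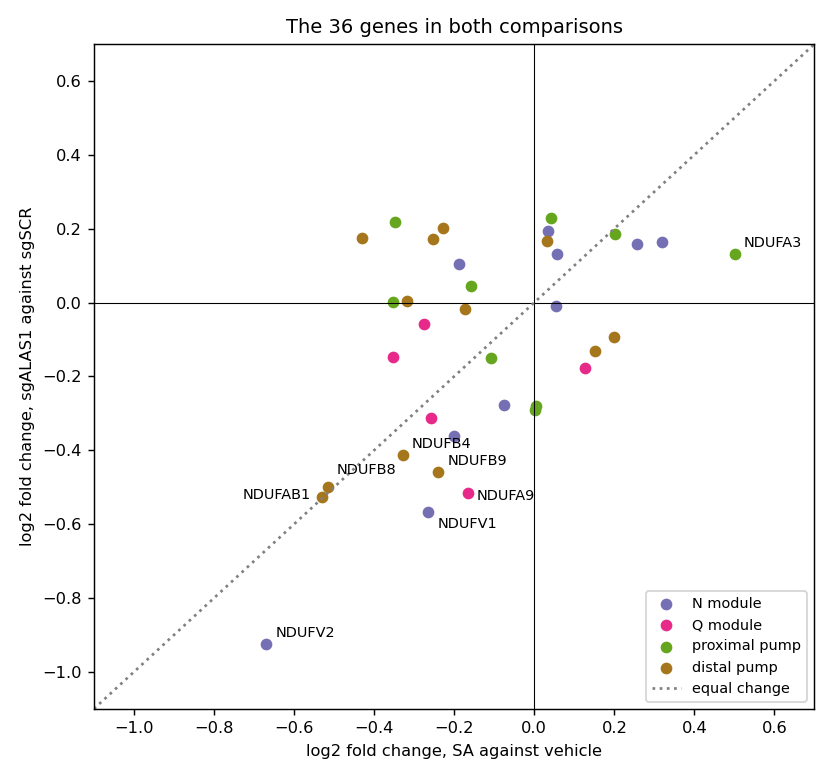
Log2 fold change with SA against vehicle (x axis) and with sgALAS1 against sgSCR (y axis) for the 36 genes, coloured by module, with the line of equal change dotted and the 8 called genes named. NDUFAB1 and NDUFB8 lie on the line, NDUFV2 lies lowest at -0.67 and -0.93, and NDUFA3 lies farthest right at 0.50.

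The scrambled guide with doxycycline set against vehicle gives the background difference between controls, and it shares the vehicle libraries with the SA comparison. It called 0 of 36 genes, beside 1.43% of all genes (0.470% higher and 0.962% lower), and DESeq2 and limma-voom called 0. An unadjusted p under 0.05 was reached by 3 (8.33%, against 12.6% of all genes), all higher (against 6.11%, and 6.53% lower). Below 0 were 16 of 36 (44.4%, against 49.1%), and the changes ran from -0.27 to 0.43, with NDUFS7 highest (0.43, adjusted p = 0.210). The control groups did not overlap for 2 genes higher with sgSCR (5.56%, against 8.42%), NDUFV1 and NDUFV3, and 1 lower (2.78%, against 8.73%), NDUFB2. Without vehicle replicate 1 it called 3, NDUFB7, NDUFS7 and NDUFV1.

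By module, the genes called in either comparison were 4 of 12 in the distal pump, 2 of 10 in the N, 1 of 5 in the Q and 1 of 9 in the proximal pump module. The share of all genes called in either comparison was not counted, so shares are given for each comparison apart. In the N module 1 of 10 fell with SA (NDUFV2) and 2 with sgALAS1 (NDUFV1 and NDUFV2), beside 6.24% and 6.85% of all genes. The module's medians were -0.02 and 0.05. NDUFV3, the third gene of that name, was at 0.06 and -0.01 and had the smallest within-group spread of the 36 (SD 0.0627). The other N-module genes ran from NDUFA7, at -0.20 and -0.36 (adjusted p = 0.0748 with sgALAS1), to NDUFS6 with SA (0.32, adjusted p = 0.110) and to NDUFA6 with sgALAS1 (0.19, adjusted p = 0.438).

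The Q module lay below 0 for 4 of 5 genes with SA and 5 of 5 with sgALAS1, with medians of -0.26 and -0.18. Of all tested genes, 51.0% and 50.3% lay below 0. In the Q module 0 were called with SA (2 at an unadjusted p under 0.05 in edgeR) and 1, NDUFA9, with sgALAS1. Of all genes, 11.1% and 11.7% were called. The gene with the smallest p for SA was NDUFA5, at 57.0, 53.3 and 72.6 CPM with vehicle and 48.6, 48.3 and 46.0 with SA, without overlap (-0.35, adjusted p = 0.124). In the guide groups it read 56.0, 50.5 and 54.9 with sgSCR and 47.2, 56.2 and 41.9 with sgALAS1, which overlap (-0.15). NDUFS3, a core subunit that lies without overlap below its control in both comparisons, was at -0.26 (adjusted p = 0.197) and -0.31 (adjusted p = 0.103). The summed Q module was 388 to 461 CPM with vehicle and 353 to 405 with SA, and 454 to 484 with sgSCR and 367 to 417 with sgALAS1, so that only the guide groups stood apart. The sgALAS1 sums overlapped those of vehicle. With sgSCR against vehicle 1 of 5 lay below 0 (median 0.13, 0 called), beside 49.1% of all genes.

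The 6 core subunits kept from bacteria, NDUFV1, NDUFV2, NDUFS1, NDUFS3, NDUFS7 and NDUFS8, carry the flavin and the iron-sulphur clusters. Below 0 were 5 of them with SA (median -0.26, 1 called) and 6 with sgALAS1 (median -0.30, 2 called). Of all genes, 51.0% and 50.3% lay below 0, and 6.24% and 6.85% were called lower. With sgSCR against vehicle 1 of the 6 core subunits lay below 0 (median 0.16, 0 called), beside 49.1% of all genes.

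The proximal pump module was centred on 0, with medians of 0.00 and 0.05. NDUFA3 rose with SA, as did 4.83% of all genes, and with sgALAS1 0 of 9 were called, beside 11.7% of all genes. At an unadjusted p under 0.05 in edgeR, 2 of the 9 were lower with sgALAS1, beside 13.3% of all genes. The gene with the smallest p there was NDUFA11, at 147.6, 152.2 and 144.3 CPM with sgSCR and 134.3, 109.6 and 121.5 with sgALAS1, without overlap (-0.28, adjusted p = 0.148). With vehicle it was at 173.7, 132.3 and 148.3 and with SA at 168.4, 139.5 and 148.3, which overlap (0.01). NDUFA8 lay just outside the threshold with SA (-0.35, adjusted p = 0.059) and at 0.00 with sgALAS1.

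In the distal pump module, 2 of 12 were lower with SA and 4 with sgALAS1, beside 6.24% and 6.85% of all genes. The module's medians were -0.25 and -0.06. Its summed level was 1684 ± 93.8 CPM with vehicle and 1428 ± 37.7 with SA, and 1651 ± 13.3 with sgSCR and 1439 ± 93.3 with sgALAS1 (SD, n = 3). Neither treated group overlapped its control. Without NDUFB9, which makes up much of that sum, the drug groups still stood apart (1121 to 1205 with vehicle, 924 to 1058 with SA), while the guide groups overlapped (1105 to 1172 with sgSCR, 959 to 1179 with sgALAS1). NDUFB1 was at -0.43 (adjusted p = 0.0767) with SA and 0.18 with sgALAS1. NDUFB6, the least abundant of the 36 with a mean of 38.5 CPM, read 40.6, 38.9 and 45.3 with vehicle, 41.2, 34.0 and 35.5 with SA, 32.5, 42.8 and 38.7 with sgSCR and 33.0, 40.9 and 39.0 with sgALAS1. Its groups overlap in both comparisons.

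**Figure D4:**
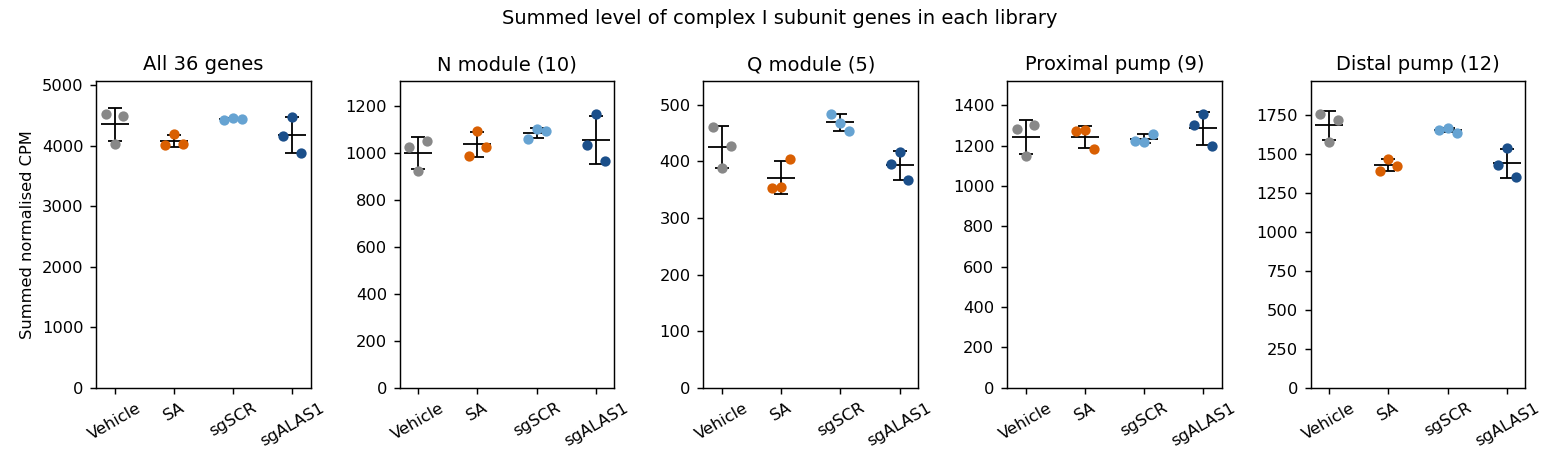
Summed normalised CPM (y axis, from 0) of all 36 genes and of each module, in each of 3 libraries of the 4 groups (x axis), with the mean and SD in black. The distal pump sums stand apart from their controls in both comparisons, and the N and proximal sums overlap.

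Summed over all 36 genes, the level was 4353 ± 275 CPM with vehicle, 4078 ± 99.2 with SA, 4438 ± 15.5 with sgSCR and 4170 ± 299 with sgALAS1 (SD, n = 3). The difference between the group means of the log2 sums was -0.09 in both comparisons, beside a within-group SD of 0.0717, and 0.03 between the controls. Libraries differed among themselves: vehicle replicate 2 was the highest of its group for 0 of 36 genes and sgALAS1 replicate 2 for 24. The widest within-group spreads were those of NDUFA1 (SD 0.349), NDUFB3 (0.299) and NDUFB1 (0.272). NDUFA1 and NDUFB1 were both highest in vehicle replicate 3, SA replicate 2, sgSCR replicate 3 and sgALAS1 replicate 2.

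The genes without a call ran from -0.43 to 0.32 with SA (32 genes, adjusted p 0.059 to 0.994) and from -0.36 to 0.23 with sgALAS1 (29 genes, adjusted p 0.0748 to 0.997). Transcript length ran from 528 to 11819 bases, and its log2 had a Pearson r with the change of 0.03 for SA and -0.17 for sgALAS1 across the 36 genes, which are not independent replicates. Several share their locus with another counted identifier on the same strand: NDUFA7 with ENSG00000167774 (88.4 to 96.9% as many reads), NDUFA13 with ENSG00000258674 (66.6 to 79.4%) and NDUFC2 with NDUFC2-KCTD14 (20.7 to 54.9%). NDUFA13 also shares its locus with YJEFN3 (36.7 to 54.8%), itself called higher with sgALAS1 (0.47, adjusted p = 0.0311). NDUFS3 shares its locus with PTPMT1 (31.6 to 41.5%) and NDUFA11 with ENSG00000267740 (18.9 to 33.2%). On the opposite strand, RPS28 had 2784 to 3474% of the reads of NDUFA7 and was itself called lower with sgALAS1 (-0.53, adjusted p = 0.00232), and EEF1B2 had 518 to 1054% of those of NDUFS1. CELF1 had 97.5 to 187% of the reads of NDUFS3, NAA15 99.2 to 144% of NDUFC1, IK 69.2 to 112% of NDUFA2, an unnamed identifier 88.0 to 97.1% of NDUFS7 and TATDN1 29.1 to 44.5% of NDUFB9. The strand setting of the counting is not known from the labels, so these levels are uncertain. Named pseudogenes of the 36 held at most 1.06% of the reads of their gene.

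Of the 7 mitochondrially encoded subunits, the pump cores and their neighbours, 5 rose with SA against vehicle, beside 4.83% of all genes. They were MT-ND1 (0.31), MT-ND2 (0.40), MT-ND4 (0.34), MT-ND4L (0.46, adjusted p = 0.00374) and MT-ND6 (0.41). MT-ND3 was at -0.11 and MT-ND5 at 0.29 (adjusted p = 0.136). The count was 1 without vehicle replicate 2 or SA replicate 1 and 2 without vehicle replicate 3 or SA replicate 3, and MT-ND4L alone was called in each of the 6 fits without 1 library. Their sum was 27367 ± 2215 CPM with vehicle, 32661 ± 1723 with SA, 33764 ± 3908 with sgSCR and 33246 ± 493 with sgALAS1 (SD, n = 3). The vehicle libraries were thus the low ones, from 25506 to 29817 CPM, against 30288 or more in every sgSCR library.

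sgSCR against vehicle called 2 higher, MT-ND1 (0.45, adjusted p = 0.0094) and MT-ND4L (0.41, adjusted p = 0.0409), beside 0.470% of all genes, with a median of 0.41. That count ranged from 0, without vehicle replicate 2 or sgSCR replicate 1, to 5, without vehicle replicate 1. With sgALAS1 0 of 7 were called and the median was -0.06, with 1 at an unadjusted p under 0.05 in edgeR and 0 called by DESeq2 and limma-voom. The direct test of the difference called 0 (6 at an unadjusted p under 0.05, 3 called by DESeq2 and 1 by limma-voom), and 4 without vehicle replicate 1 or 2 without SA replicate 2. The 36 nuclear genes summed to 15.1 to 17.6% of the mitochondrial sum in the vehicle libraries, 11.7 to 13.6% with SA, 11.7 to 14.7% with sgSCR and 11.6 to 13.3% with sgALAS1.

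**Figure D5:**
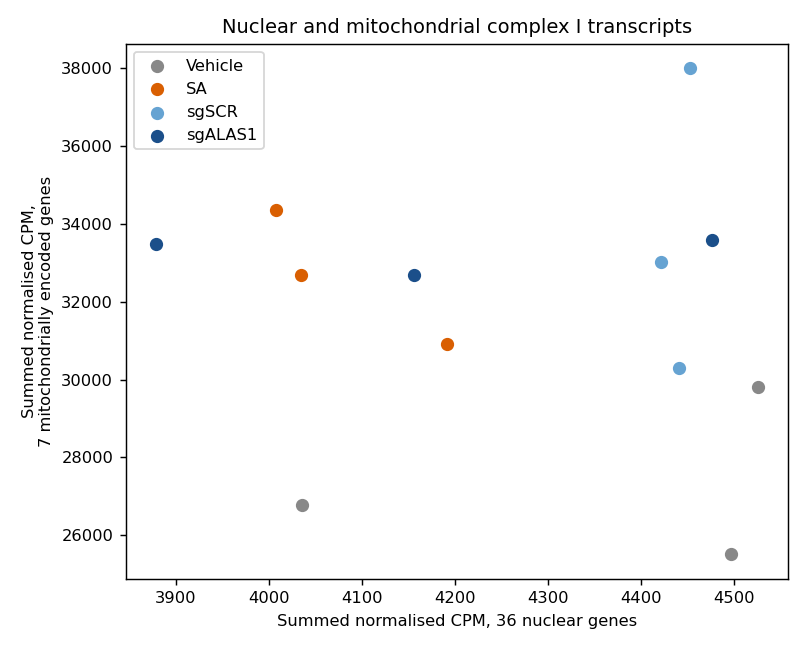
Summed normalised CPM of the 36 nuclear genes (x axis) and of the 7 mitochondrially encoded genes (y axis), 1 point a library, coloured by group; neither axis starts at 0. The vehicle libraries lie lowest on the y axis, between 25506 and 29817, and the other 9 lie at 30288 or more.

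Assembly factors, which build the complex and are not part of it, had medians of -0.05 and -0.01 over 22 genes, with 1 called lower in each comparison, beside the 6.24% and 6.85% of all genes. At an unadjusted p under 0.05 in edgeR, 6 of the 22 were lower and 0 higher with SA, beside 13.2% and 11.3% of all genes. With sgALAS1 4 of the 22 were lower and 0 higher, beside 13.3% and 11.6%. NDUFAF5, which modifies NDUFS7 during assembly, had the lowest change in both, at -0.83 (adjusted p = 0.205) and -0.80 (adjusted p = 0.187), without a call. NDUFAF3, which acts on the early Q module, stood at 110 ± 21.1 CPM with vehicle and 81.2 ± 3.41 with SA (-0.44, SE 0.14, adjusted p = 0.0402), and the call held in only 1 of the 6 fits without 1 library, that without vehicle replicate 2. NDUFAF6, on chromosome 8, went from 22.6 ± 4.60 with sgSCR to 13.9 ± 4.03 with sgALAS1 (-0.71, SE 0.23, adjusted p = 0.0391), held in 2 of the 6 fits and was not called by DESeq2. The 2 fits were those without sgSCR replicate 3 or sgALAS1 replicate 3.

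The partners of NDUFAB1 were taken as 2 lists, the enzymes of mitochondrial fatty acid synthesis and lipoylation and the LYR-motif proteins that bind the acyl carrier. Of 8 enzymes, 6 lay below 0 with SA (median -0.32) and 7 with sgALAS1 (median -0.40), beside 51.0% and 50.3% of all genes. HSD17B8, a subunit of the ketoacyl reductase, was at 6.10 CPM with vehicle and fell to 1.83 with SA (-1.74, SE 0.44), with an adjusted p of 0.00925, or of 0.102 without vehicle replicate 1. MCAT, which loads malonate onto the carrier, fell with sgALAS1 from 17.5 to 8.29 CPM (-1.07, SE 0.26, adjusted p = 0.00469). These were the called enzymes, 1 in each comparison, beside 6.24% and 6.85% of all genes called lower. Each list count was 2 without SA replicate 2 or sgALAS1 replicate 2 respectively. LIAS, the lipoyl synthase, was at -0.47 and -0.65 without a call.

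Of 9 LYR-motif genes 8 were tested, with medians of 0.05 and -0.29. In each comparison 1 was called lower, beside 6.24% and 6.85% of all genes. SDHAF3, an assembly factor of complex II, fell with SA (-0.80, SE 0.20, adjusted p = 0.00861). LYRM4, which works with the iron-sulphur cluster machinery, fell with sgALAS1 from 63.0 to 42.7 CPM (-0.56, SE 0.14, adjusted p = 0.00897, and 0.0544 without sgALAS1 replicate 2).

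Nuclear subunits of the other respiratory complexes had 0 or 1 call a list in each of the SA and sgALAS1 comparisons by edgeR, where 11.1% and 11.7% of all genes were called. Among 13 subunits of complexes II and III, UQCRB, on chromosome 8, fell with SA (-0.39) and CYC1, the heme-bearing cytochrome c1 on chromosome 8, with sgALAS1 (-0.56, adjusted p = 0.00147), with medians of -0.08 and -0.02. The count with sgALAS1 was 2 without sgALAS1 replicate 2 or 3, and 2 by DESeq2 and limma-voom. Among 11 of complex IV, COX6C, also on chromosome 8, fell with SA (-0.50) and 0 were called with sgALAS1, where 2 were lower at an unadjusted p under 0.05 in edgeR and DESeq2 and limma-voom called 0. With SA DESeq2 called 2 and limma-voom 1. The median of complex IV was -0.10 in both comparisons. Among 17 of ATP synthase, ATP5F1C fell with SA (-0.42) and 0 were called with sgALAS1 (2 at an unadjusted p under 0.05, 0 by DESeq2 and limma-voom), with medians of -0.13 and -0.05. None of the 6 fits without 1 library called ATP5F1C. COX6C was called in 2 of them, those lacking vehicle replicate 1, where 2 genes of complex IV were called, or SA replicate 2, and UQCRB in 3, those lacking vehicle replicate 1, vehicle replicate 3 or SA replicate 2.

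Among 12 tested genes listed for the expression of nuclear or mitochondrial respiratory genes, MYC and TFB1M were lower in both comparisons. Of all genes, 6.24% and 6.85% were called lower. The medians of the list were -0.11 and -0.10. TFB1M, the methyltransferase of the small mitochondrial ribosomal RNA and not a regulator of nuclear genes, was at -1.06 (adjusted p = 3.91e-04) and -1.05 (adjusted p = 2.15e-04). MYC, which lies on chromosome 8, was at -1.09 and -0.92. NRF1, GABPA, YY1, ESRRA and TFAM had changes of -0.51, -0.18, -0.03, 0.01 and -0.21 with SA and -0.23, 0.57, 0.22, -0.06 and -0.18 with sgALAS1, without a call.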

How the data were processed

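QuantSeq 3′ libraries of polyadenylated RNA were sequenced from 12 OCI-AML3 samples, per the labels' protocols. Per the submitters' processing notes, bcl2fastq 2.17.1.14, cutadapt 1.14, HISAT2 2.0.4 on hg19 and featureCounts of Subread 2.0.0 were used, with edgeR 3.34.0 and limma 3.48.3 also listed. Not given in the sources used here are the gene annotation's release, whether counting used strand, and the treatment of multiply mapped reads. As deposited, the values are raw read counts per Ensembl gene. Names came from a gene table for 51996 identifiers and from GENCODE 29 for 342, and 5567 had none.

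All 12 libraries were fitted by group in edgeR 4.0.16 (R 4.3.3; TMM, filterByExpr, quasi-likelihood F-test, two-sided) with Benjamini-Hochberg adjustment over 13832 genes and a threshold of 0.05. The common biological coefficient of variation was 16.4%. The SE is the absolute log2 fold change over the square root of F, and 95% intervals are 1.96 SE either side. Within-group correlations of log2 CPM were 0.959 to 0.971. The fit was also run on counts simulated from its own estimates of the spread, with known changes added, which cannot check those estimates. Alternatives used DESeq2 1.42.0, limma-voom (limma 3.58.1), other scalings and filters, a replicate block and each library left out.

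Members and lists were chosen with earlier results of these data known. Values in every library are given for members past the threshold, for those with the smallest p in each module and for the highest and lowest in level, and other lists name up to 4 called genes. The genes LIAS, NRF1, GABPA, YY1, ESRRA and TFAM, NDUFAF5, CD3D, EPOR, HBG2, the members just outside the threshold and the other members named were named after their values were seen. RefSeq promoters (GRCh38.p14) gave the sequences, and no coordinate of the counts was used. The summed erythroid markers are not reported here.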

Additional observations from a re-analysis of the deposited data

Results flagged for a closer look

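ALAS1 changed in opposite directions in the 2 comparisons, 1.60 with SA against vehicle and -0.56 with sgALAS1 against sgSCR. The difference of the effects was -2.16 on the log2 scale (edgeR's quasi-likelihood test, adjusted p = 1.14e-08). Groups of 3 libraries are too small for a search for single deviating libraries.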

How the results depend on the processing

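For SA against vehicle the count of called complex I genes was 4 with DESeq2's size factors, without mitochondrially encoded rows in the library sizes and with the drug groups alone, 5 with no filter on low counts (adding NDUFB1) or limma-voom (adding NDUFA8), 6 with DESeq2 (adding NDUFA8 and NDUFB4), and 4 to 6 when 1 library was left out. For sgALAS1 against sgSCR it was 7 under each of these settings and 5 to 8 with 1 library left out. The difference of the effects gave 0 in all of these settings, but a fit of only the groups of a comparison cannot apply to it. sgSCR against vehicle gave 0 except without vehicle replicate 1, where it gave 3, a range of 0 to 3. The 4 genes called with SA, and NDUFV2, NDUFV1, NDUFAB1, NDUFB8 and NDUFB9 with sgALAS1, passed in every fit without 1 library.

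The replicate numbers were not shown to pair the libraries: residuals of same-numbered libraries correlated at -0.0661 to 0.0572 and of others at -0.152 to 0.109. A replicate block gave 6 genes with SA (adding NDUFA8 and NDUFB1), 7 with sgALAS1 and 0 for the difference and for sgSCR against vehicle.

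Of the named genes' values, 29 values under an alternative had the other sign, none of a result past the test. The difference for NDUFAB1 was -0.00383 with DESeq2's size factors, -0.00393 with DESeq2 and -0.00572 without mitochondrial rows, and NDUFA11 with SA was -0.00995 without the filter. With 1 library left out, the values ran from -0.0385 to 0.0636 for NDUFAB1 and -0.0629 to 0.101 for NDUFB8 in the difference, from -0.0855 to 0.119 for NDUFA11 and -0.274 to 0.0333 for NDUFA9 with SA, and from -0.118 to 0.0849 for NDUFB6 with sgALAS1. For sgSCR against vehicle they ran from -0.0777 to 0.00975 for NDUFAB1, -0.174 to 0.0517 for NDUFV2, -0.122 to 0.0566 for NDUFB9 and -0.0298 to 0.109 for NDUFB8.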
